A study of Saccharomyces cerevisiae with 6 samples.

Results

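The genes described are 54 genes of amino acid synthesis in budding yeast, without the sulfur amino acid genes and without the marker genes of the strain. They were taken from a fixed list of names, and each was placed in the 10 kb bin of a Hi-C map that holds its midpoint. They occupy 52 bins on 15 chromosomes, with none on chromosome I, out of 1195 nuclear bins that hold a value. HIS7 and ARO4 share a bin, as do ILV1 and SER3. A filter for bins with enough partners left 50 of the 52 bins and 1086 of the 1195. ILV6, the regulatory subunit of acetolactate synthase, and LYS1, the last enzyme of lysine synthesis, lie in the bins that did not pass.

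Both maps are of strain yMD291 grown in synthetic medium without methionine, and no map with methionine was compared. The strain is MATa bar1, has tor1-1 and fpr::NAT, and carries ade2-1 and can1-100. Its further mutant alleles are trp1-1, ura3-1, leu2 with its mutations 3 and 112, and his3-11,15. Inserted are ADE2::REV1pr-LacI-REV1pr-tetR and HIS3::REV1pr-tetR-mCherry-REV1pr-LacI-GFP. Chromosome XV carries repeat arrays, LacO at 497047 and TetO at 834487. The members nearest to the arrays are LEU9, 26.9 kb from LacO, and CPA1, 49.0 kb from TetO. Not analysed here were the other 4 samples in the labels: a control strain yLB121a and its YBP2-LacO derivative, grown without or with 2 nM estradiol. The methods describe sequencing replicates as biological ones.

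Yeast makes all amino acids from intermediates of central carbon metabolism and ammonia, and the genes of one pathway are scattered over the chromosomes instead of lying in operons. Many of them share one transcriptional activator, Gcn4, which is made when amino acids run short and which binds a short palindrome-like motif upstream of its targets. Hi-C joins DNA ends that lie close together in fixed nuclei, so the number of joined reads between bins is a measure of how often those bins meet. The question asked of the maps was whether genes of these shared pathways met more often than other bins placed alike.

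Values are given as observed over expected contacts (O/E). Yeast centromeres are held together and chromosome ends lie near the nuclear rim, so between chromosomes the expectation was the mean of all bin pairs with the same distances to centromere and chromosome end. Within a chromosome it was the mean at the same distance. The maps hold 3760159 contacts in replicate 1 and 3518507 in replicate 2. A member pair between chromosomes had 1.85 contacts on average in replicate 1 and 1.69 in replicate 2, against 1.64 and 1.52 for all pairs. Members lay a median of 221 kb from their centromere, and the other bins 223 kb. Member bins held a median of 29.5 cut sites of DpnII (GATC), and other bins 30.

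A sequence feature that the list did not use was more frequent upstream of the members than of other genes. The Gcn4 motif TGACTCA, on either strand, occurred between 250 bases before and 50 bases after the start codon in 20 of the 54 genes (37.0%), against 164 of 6001 protein-coding genes (2.73%). It was searched after the contact values were known. By pathway it was found in 4 of 6 histidine genes, 5 of 10 branched-chain genes and 2 of 5 arginine genes. It was also found in both asparagine genes, 2 of 3 proline genes, 2 of 7 lysine genes, 2 of 9 aromatic genes and 1 of 5 threonine genes. It was in none of the 4 serine and none of the 3 glutamate genes. The windows below are only some of the matches in members that are named further on for a pair or for their level. They do not tie the motif to such pairs or levels. Of the genes in the 10 highest pairs, ARO7, CPA1, THR1, LEU9, ARO3, HIS6, GDH1 and GLN1 have no match. The other genes with a match, not printed, are ARG8, ARO1, ASN1, ASN2, HIS5, HIS7, ILV3, ILV5, ILV6, LEU4, LYS1, PRO2 and TRP3. Among these, HIS5, ILV3 and ASN2 are also named further on for a pair or for their level. The windows are 30 bases each, read in the direction of the gene from the R64 reference, and the capitals mark the motif or its reverse complement.
BAT1, chrVIII:517350-517379, strand plus: ttgccttcttaTGACTCAaaattctattgt
HOM2, chrIV:770162-770191, strand plus: caagcattgatTGACTCAttttcctctgac
ARG4, chrVIII:141563-141592, strand minus: tagtagatgaaTGACTCActttttggataa
HIS4, chrIII:68514-68543, strand minus: cccatgcacagTGACTCAcgtttttttatc
HIS1, chrV:265951-265980, strand minus: aagcttccaagTGAGTCAcctctaccgttg
PRO3, chrV:200870-200899, strand plus: gtgtaatatccTGAGTCActccttaaacct
LYS2, chrII:474102-474131, strand minus: tttttcgcgtgTGACTCAatgtcgaaatac

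Between chromosomes, the mean contact of the members was close to that of the genome. The mean O/E over 1126 member pairs was 1.05 in replicate 1 and 1.02 in replicate 2, or 1.04 ± 0.0240 (SD, n = 2 maps), against 1 for all 544303 pairs by construction. Members with bins outside the list were at 1.03, close to the level among members. The median O/E was 0.935 in replicate 1 and 0.896 in replicate 2, against 0.853 and 0.841 for all pairs. Summed over the pairs, 3984 contacts were seen where 3873 were expected, a ratio of 1.03 with an exact 95% Poisson interval of 0.997 to 1.06. These intervals cover counting error only, and a group of 2 maps allows no test between groups.

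Counts of pairs were also close to those of the genome. Among member pairs, 260 (23.1%) were above 1 in both maps, against 20.4% of all pairs. Below 1 in both maps were 344 (30.6%), against 33.7%. O/E was above 2 in both maps for 34 member pairs (3.02%), against 2.59%. In neither map was any contact seen for 96 pairs (8.53%), against 11.5% of all pairs. O/E of single member pairs in one map said little about the other map (r = 0.0793 and rho = 0.0721 over 1126 pairs, which share bins).

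**Figure D1:**
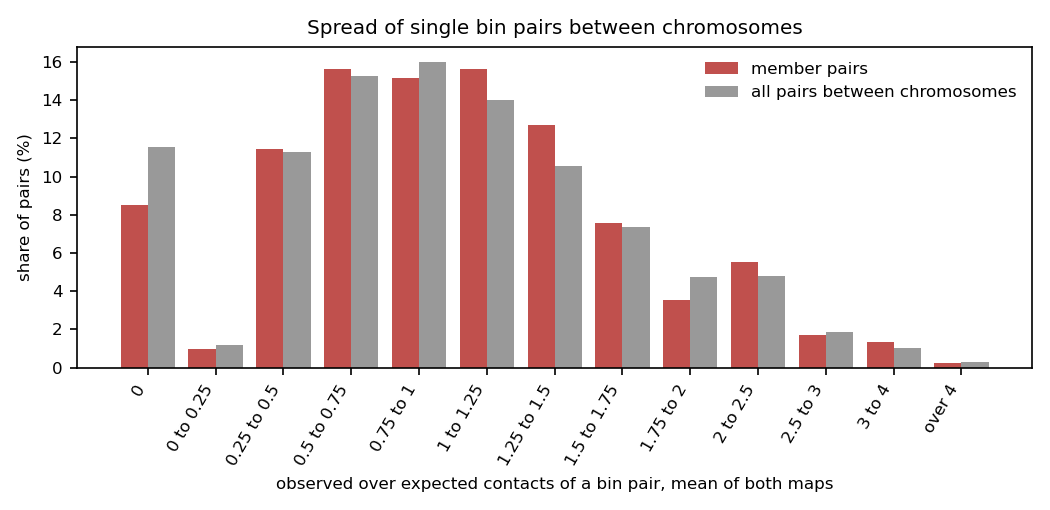
Share of bin pairs between chromosomes (%) by their observed over expected contacts, mean of both maps, for 1126 member pairs (red) and all 544303 pairs (grey). The members follow the shape of all pairs, with 8.53% at 0 against 11.5% and 0.266% over 4 against 0.312%.

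No single member pair passed the test over the genome. Pooled contacts of every pair between chromosomes were set against their expectation by a one-sided Poisson test with Benjamini-Hochberg adjustment, which called 223 of 544303 pairs (0.041%) and 0 of the 1126 member pairs. At an unadjusted p under 0.05 there were 67 member pairs (5.95%), against 4.29% of all pairs. With the negative binomial model, which allows more spread and called only 118 of all pairs, the member count was also 0. Depth limits this: the median member pair was expected to have 3.13 contacts, and a pair at that level needed 14 contacts, an O/E of 4.47, to be called. A smaller excess of a pair at that expectation would not have been called, and expectations of member pairs ran between 0.532 and 20.4 contacts.

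The pair closest to a call joined BAT1, the mitochondrial branched-chain aminotransferase, and ARO7, the chorismate mutase that opens the branch to tyrosine and phenylalanine. BAT1 lies on chromosome VIII at 517532 to 518713, and ARO7 on chromosome XVI at 674861 to 675631 (R64). The pair had 6 contacts in replicate 1 and 5 in replicate 2 where 2.36 were expected over both, with an O/E of 4.79 and 4.50. Its adjusted p was 0.0758 in the one-sided Poisson test over all pairs. Without replicate 1 the smallest adjusted p of any member pair was 0.341 in that Poisson test, and without replicate 2 it was 0.767.

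The other leading pairs rested on few contacts. HOM2, which makes aspartate semialdehyde for threonine and methionine, had 2 contacts in each map with ARG4, the argininosuccinate lyase, where 0.890 were expected (O/E 4.51). HIS4, a histidine enzyme with 3 activities, had 1 and 3 contacts with CPA1, the small subunit of carbamoyl phosphate synthetase (O/E 3.89). BAT1 had 4 and 1 contacts with ILV3, the dehydratase that makes the keto acids BAT1 aminates (O/E 3.78). That pair is of neighbouring steps in one pathway, and most of its excess was in replicate 1, at 5.99 against 1.57 in replicate 2.

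HIS1, the first enzyme of histidine synthesis, was in 3 of the 10 highest pairs. With THR1, the homoserine kinase, it had 2 and 5 contacts (O/E 3.46). With ARO3, one of a pair of enzymes that open the aromatic pathway, it had 5 in each map (O/E 3.38). With GLN1, glutamine synthetase, it had 6 and 9 contacts where 4.57 were expected (O/E 3.29). HIS1 and GLN1 both had high levels with the whole genome, and with those levels in the expectation 6.95 contacts were expected for their pair. The remaining pairs of the 10 were HOM2 with LEU9 (O/E 3.44), HIS6 with GDH1 (3.35) and THR1 with HIS5 (3.28). One further pair averaged above 4, TRP4 with ARG4 at 4.26, but had 0 contacts in replicate 1 and 3 in replicate 2; it was named after its values were seen.

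At the other end stood pairs without any contact. LYS2, the aminoadipate reductase of lysine synthesis, had 0 contacts in both maps with BAT1 (3.21 expected) and with ILV5, the acetohydroxyacid reductoisomerase (3.34 expected). The bin of HIS7 and ARO4 had none with HIS4 (1.73 expected), ARO2 (4.10 expected) or HIS6 (1.27 expected). These are the first in chromosome order of the 96 pairs at 0, and at expectations this low a count of 0 does not show separation. HIS6 and HIS7 catalyse successive steps of histidine synthesis.

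Level with the list was then taken gene by gene, as the contacts of a bin with the member bins on other chromosomes over those expected. It ranged from 0.671 to 1.44 with a median of 1.03 over the 50 member bins, against 0.490 to 1.97 with a median of 1.02 over the other 1036 bins. Much of this spread belonged to the bin and not to the list. The level with the list followed the level of the same bin with non-member bins (r = 0.776, rho = 0.769 over 50 bins), here called its own level. Levels in the 2 maps correlated with r = 0.550, and after division by the own level with r = 0.192.

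The 2 highest genes were HIS1 and GLN1. HIS1, on chromosome V at 264892 to 265785, had a level of 1.30 in the first map and 1.58 in the second, with 182 contacts where 127 were expected. That is rank 6 of all 1086 bins. Its own level was 1.26, and the ratio of both was 1.14 with an interval of 0.978 to 1.31. GLN1, on chromosome XVI at 642208 to 643320, had 1.36 and 1.35 from 327 contacts where 242 were expected. Relative to its own level of 1.20 it stood at 1.12, with an interval of 1.01 to 1.25. Its fullest pair by contacts was with ARG1, argininosuccinate synthetase, at 11 and 9 contacts where 8.30 were expected.

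PRO3, the last enzyme of proline synthesis, on chromosome V at 201076 to 201936, had 1.25 and 1.26 and a relative level of 1.18 (1.03 to 1.34). ARG4 had 1.21 and 1.27, but its own level was 1.23, so its relative level was 1.00. HIS5, the histidinol-phosphate aminotransferase, had 1.19 and 1.26 with a relative level of 1.14 (0.988 to 1.31).

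The 2 lowest genes lay on the right arm of chromosome IV. LYS4, the homoaconitase of lysine synthesis at 931129 to 933210, had 0.797 in the first map and 0.532 in the second, with 74 contacts where 110 were expected. Its relative level of 0.731 (0.574 to 0.918) was the lowest of all 1086 bins. PRO1, the kinase that opens proline synthesis at 1061505 to 1062791, had 0.705 and 0.668, with a relative level of 0.781 (0.629 to 0.957). HOM2, on the same arm at 770357 to 771454, had 0.917 and 0.715. ASN2, one of a pair of asparagine synthetases on chromosome VII, had 0.899 and 0.726 and a relative level of 0.811 (0.651 to 0.998). THR4, threonine synthase on chromosome III, had 0.762 and 0.832.

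In all, 2 of 50 member bins (4%), those of GLN1 and PRO3, had an interval of the relative level above 1, against 7.37% of all 1086 bins. An interval below 1 was found for 3 of 50 (6%), those of LYS4, PRO1 and ASN2, against 2.49% of all bins. The median relative level was 1.01 in member bins and 1.03 in other bins. In both maps 16 member bins (32%) were above 1 by relative level, against 34.6% of all bins. Neighbours in the order of levels do not differ beyond their intervals: the bins between ranks 2 and 5 of the members, GLN1, PRO3, ARG4 and HIS5, all overlap.

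ILV6 and LYS1 could be placed without the filter on bins. ILV6 then had 137 contacts where 146 were expected, a level of 0.936, and LYS1 had 90 where 96.9 were expected, a level of 0.928. The intervals of both include 1.

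**Figure D2:**
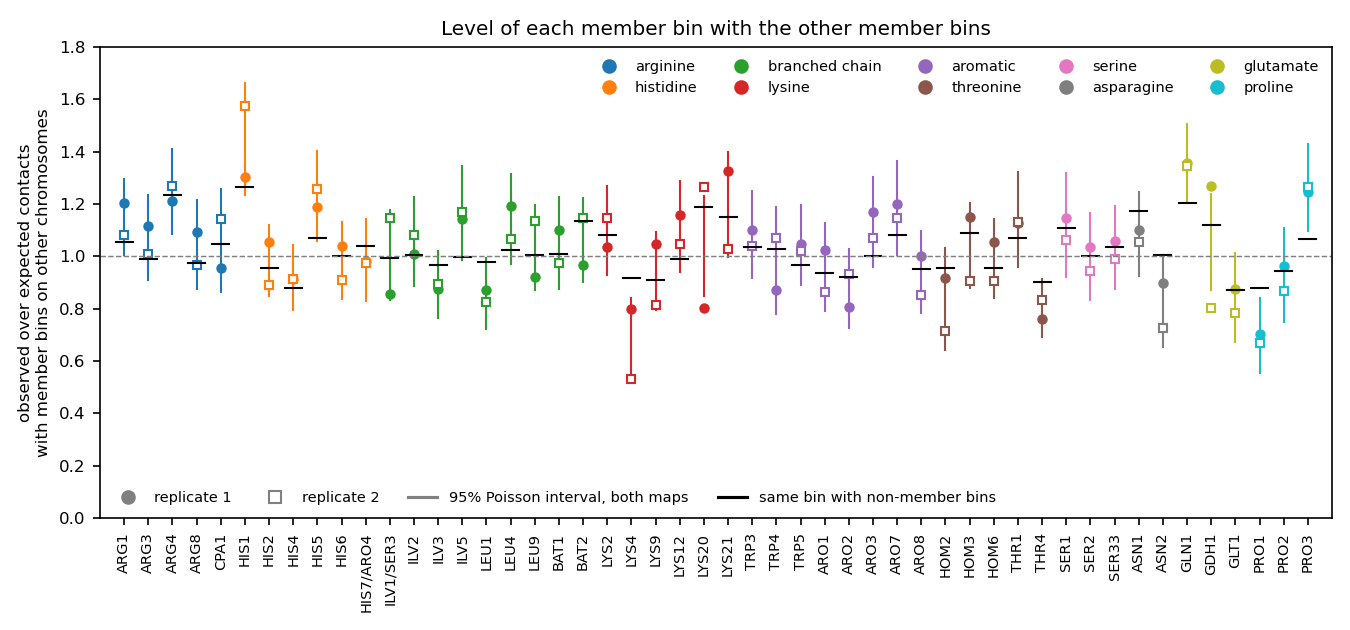
Observed over expected contacts of each of the 50 member bins with the member bins on other chromosomes (vertical axis), by pathway, in replicate 1 (filled) and replicate 2 (open), with the 95% Poisson interval of both maps; black bars mark the level of the same bin with non-member bins. HIS1 at 1.30 and 1.58 and GLN1 at 1.36 and 1.35 are highest, LYS4 at 0.797 and 0.532 is lowest, and most coloured points lie near their black bar.

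Genes of one pathway met about as often as genes of different pathways. The 121 pairs within a pathway averaged 1.10 in the first map and 1.05 in the second (1.07 ± 0.0360, SD, n = 2 maps), and the 1005 pairs of different pathways had 1.05 and 1.02 (1.03 ± 0.0226). Within a pathway 29 pairs (24.0%) were above 1 in both maps and 38 (31.4%) below, close to the shares of all pairs. Enzymes of consecutive steps were somewhat higher. Of 42 listed gene pairs of consecutive steps or of subunits of 1 enzyme, 36 lay on different chromosomes and 4 on the same one. The other 2, ILV2 with ILV6 and LYS9 with LYS1, could not be measured. ILV2 and ILV6 were the pair of subunits, so the 36 pairs include none. The 36 pairs had an O/E of 1.20 and 1.17 (1.19 ± 0.0223), with 152 contacts where 131 were expected, a ratio of 1.16 (0.984 to 1.36). With the own level of each bin in the expectation the ratio was 1.18 (1.00 to 1.39). Over the alternative settings the mean O/E ran between 1.08 and 1.22. Among the 36 pairs 14 (38.9%) were above 1 in both maps, against 20.4% of all pairs, and 12 (33.3%) were below, against 33.7%.

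Single pathways rested on few pairs. Arginine was highest as measured, with a mean O/E in replicate 1 of 1.64 and in replicate 2 of 1.26 over 7 pairs, and 35 contacts where 23.2 were expected (ratio 1.51, interval 1.05 to 2.09). With own levels in the expectation its ratio was 1.33 (0.924 to 1.85). Its rank and most of its excess were lost under other settings. Its mean over both maps, 1.45, became 1.03 over 3 by 3 bins, where glutamate genes had 1.24, threonine genes 1.21 and histidine genes 1.20. With the mean of all pairs as the expectation it was 1.16, and histidine genes had 1.46. ARG1 had 6 and 5 contacts with ARG4, the enzyme of the next step, where 4.98 were expected. ARG1 also had 6 and 5 with ARG3, the ornithine carbamoyltransferase one step earlier, where 6.16 were expected. The highest arginine pair by O/E, ARG4 with CPA1 at 2.47, had 1 contact in each map. The lowest, ARG3 with CPA1, had 1 contact where 2.20 were expected, although CPA1 helps make the carbamoyl phosphate that ARG3 uses.

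Histidine genes had 1.11 and 1.15 over 14 pairs, and 83 contacts where 67.6 were expected (ratio 1.23, 0.978 to 1.52). HIS2 with HIS4 had 10 and 8 contacts where 11.3 were expected, and HIS1 with HIS6 had 3 in each map (O/E 2.32), the highest of the pathway. Branched-chain genes had 1.21 and 1.09 over 35 pairs. Their highest pair was BAT1 with ILV3, and their lowest was ILV3 with the bin of ILV1, the threonine deaminase, with 0 contacts where 3.31 were expected. ILV5 with ILV3, consecutive enzymes, had 1 and 2 contacts where 1.03 were expected (O/E 2.92).

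Lysine genes had 1.11 and 1.07 over 12 pairs, led by LYS2 with LYS4 at 5 and 2 contacts (O/E 2.24). LYS20 with LYS9 was lowest, at 0 contacts. Aromatic genes were at 0.955 and 0.921 over 30 pairs, of which 3 (10%) were above 1 in both maps, against 20.4% of all pairs, and 9 (30%) below, against 33.7%. Their highest pair was TRP4 with TRP5 at 1 and 2 contacts (O/E 2.59). Threonine genes had 1.02 in replicate 1 and 0.730 in replicate 2 over 10 pairs, and their mean of 0.874 became 1.21 over 3 by 3 bins. Among them THR1 with THR4, the last 2 enzymes of the pathway, had 7 and 4 contacts where 4.05 were expected (O/E 2.72). Its unadjusted p was 0.00312 and its adjusted p was 0.632 in the one-sided Poisson test over all pairs. THR4 with HOM2 had 0 where 3.18 were expected.

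The small groups vary between maps. Serine genes had 0.879 and 1.17 over 6 pairs, from SER2 with SER33 at 0.311 to SER2 with the bin of SER3 at 1.63. The 3 pairs of glutamate and glutamine genes had 1.82 and 1.01: GLT1, glutamate synthase, had 4 and 3 contacts with GLN1 (O/E 2.30), the only consecutive-step pair between chromosomes above 2 in both maps, and 0 with GDH1, the NADP-dependent glutamate dehydrogenase. The 3 proline pairs were at 0.245 in replicate 1 and 1.78 in replicate 2, so either map alone would decide their side of 1. They ran from PRO1 with PRO3 at 0.628 to PRO2 with PRO3 at 1.47.

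Between pathways, the highest contact ratio was that of arginine with glutamate genes, with 73 contacts where 48.4 were expected over 12 pairs (ratio 1.51, 1.18 to 1.89). Histidine with glutamate genes had 100 contacts over 18 pairs, a ratio of 1.33 (1.09 to 1.62). Both sets include the bin of GLN1. Of 55 combinations of pathways, each pathway with itself included, 4 had an interval above 1 and 1 below. With the own level of each bin in the expectation, 0 had an interval above 1 and 1 below, that of asparagine with proline genes at 10 contacts where 19.4 were then expected.

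**Figure D3:**
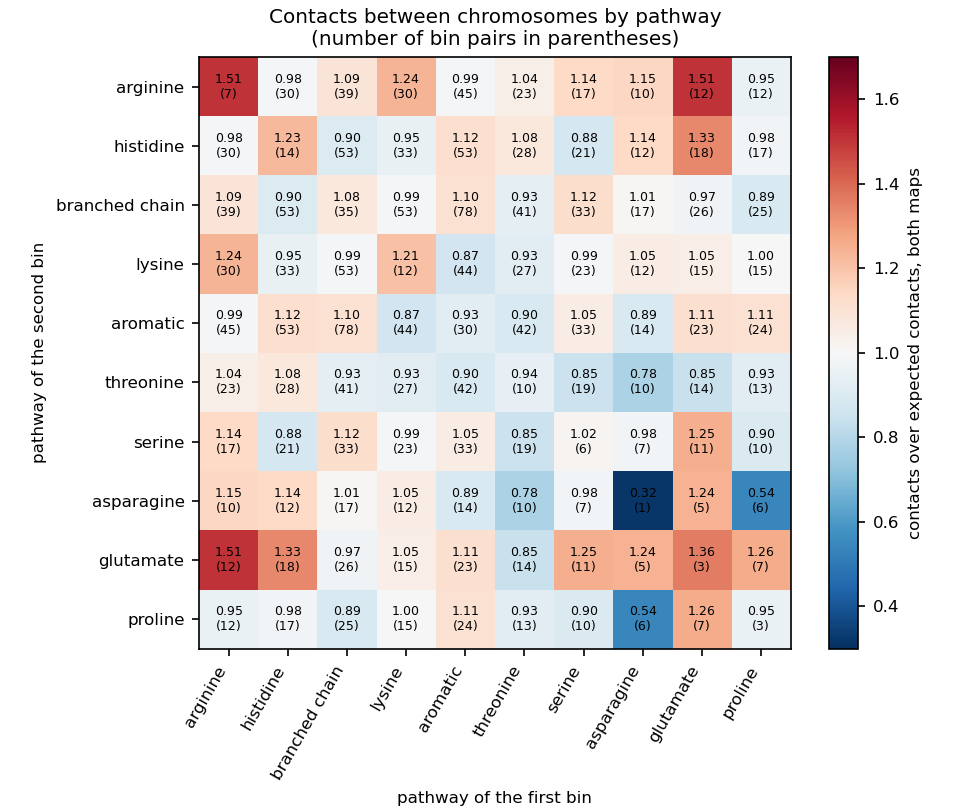
Contacts over expected contacts between chromosomes, summed over both maps, for each pair of pathways (rows and columns), with the number of bin pairs in parentheses. Arginine with arginine and arginine with glutamate stand at 1.51, and asparagine with itself at 0.319 is a single pair with 1 contact.

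Pairs of genes that both have the Gcn4 motif had a mean contact close to that of all member pairs. Of the 50 bins 18 hold a member with the motif. The 148 pairs in which both bins do averaged 1.10 in replicate 1 and 0.998 in replicate 2 (O/E 1.05 ± 0.0730). Pairs with the motif on 1 side were at 1.08 in both maps (531 pairs), and the 447 pairs with none were at 1.00 and 0.957. Summed contacts gave ratios of 1.05 (0.963 to 1.15) for both sides and 1.07 (1.02 to 1.12) for 1 side. With none the ratio was 0.976 (0.928 to 1.03). The difference between these classes was not tested. The spread between maps of the pairs with the motif on both sides exceeded their distance from either other class. GLN1, with the second highest level of the list, has no such motif in its window. LYS2, in the windows printed above, was in 2 of the pairs without contact, which were named by chromosome order. Its level with the list was 1.03 in replicate 1 and 1.15 in replicate 2.

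Members were also set against the genes around them in metabolism. With regulators (GCN4, GCN2, LEU3, LYS14, ARG80, ARG81, ARG82 and GLN3, of which 7 bins passed the filter) the mean O/E of the members was 1.09 in replicate 1 and 1.04 in replicate 2. With 17 bins of further synthesis genes it was 1.09 and 1.07, and with 22 bins of sulfur amino acid genes 1.08 and 1.05. Over both maps these means were 1.07, 1.08 and 1.06, somewhat above the 1.03 of members with all other bins. By summed contacts the ratio was 1.01 (0.953 to 1.07) with regulators and 1.05 (1.01 to 1.08) with further synthesis genes. With sulfur genes it was 1.067 (1.032 to 1.103), and with all other bins 1.022 (1.017 to 1.027). The difference was not tested, and the own level of the bins is not in these expectations. No contact in either map was seen for 9.66% of the pairs with regulators and 5.19% with further synthesis genes. With sulfur genes it was 12.3%, against 9.78% with all other bins. MET5, a sulfite reductase subunit, lies in a member bin and was not counted among the sulfur bins.

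Around the member pairs no peak stood at the centre. The mean O/E at the member bins was 1.04, and over the 224 positions within 70 kb it was 1.03, with a range from 0.955 to 1.14. In the mean of both maps 77 of the 224 positions were as high as the centre or higher, 58 in replicate 1 and 117 in replicate 2.

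**Figure D4:**
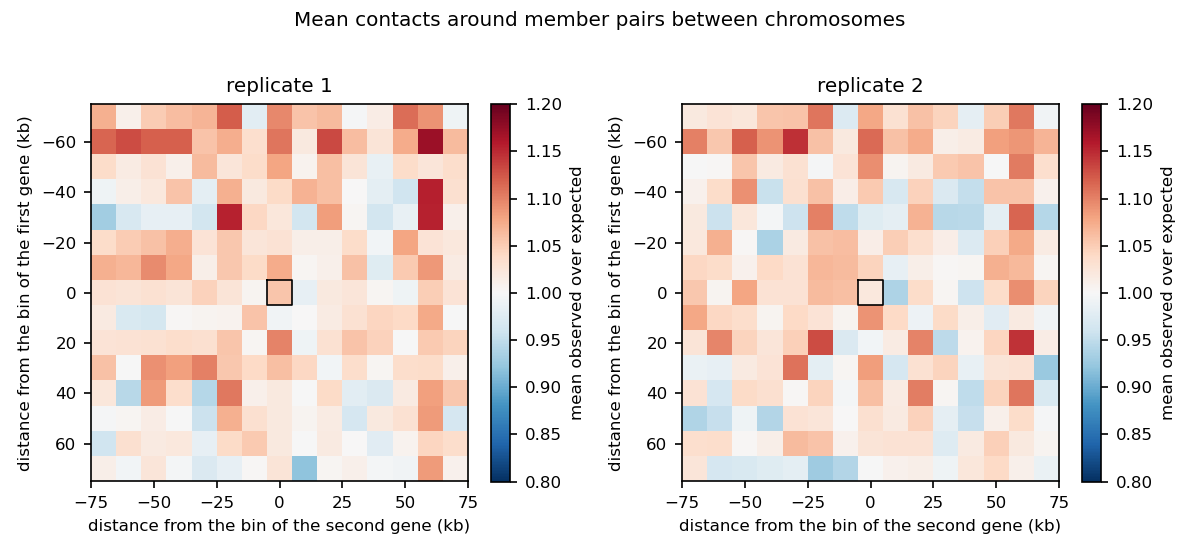
Mean observed over expected contacts (colour) at distances of up to 70 kb on either side of the member bins (axes, kb), over all member pairs between chromosomes, in each map. The centre square is at 1.05 in replicate 1 and 1.02 in replicate 2, within the range of its surroundings in both.

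Several members are duplicate genes, and reads from identical sequence cannot be placed uniquely. An identical word of 50 bases, on either strand, was shared by 6 member pairs between chromosomes and by LYS20 with LYS21 on the same chromosome. Not all of these are duplicate genes. For ARO3 with HOM3, PRO3 with ARO8 and HIS2 with ARG4 the longest stretch lies in noncoding genes of the same bins. For HOM3 with ARG4 it lies in no annotated gene. The longest identical stretches of the 3 gene pairs with shared coding sequence are shown, from the R64 reference in the direction of the gene, with GATC, the site cut before ligation, in capitals. Coordinates are those of the first and the second gene.
LYS20 and LYS21, chrIV:133773-134050 and chrIV:227771-228048: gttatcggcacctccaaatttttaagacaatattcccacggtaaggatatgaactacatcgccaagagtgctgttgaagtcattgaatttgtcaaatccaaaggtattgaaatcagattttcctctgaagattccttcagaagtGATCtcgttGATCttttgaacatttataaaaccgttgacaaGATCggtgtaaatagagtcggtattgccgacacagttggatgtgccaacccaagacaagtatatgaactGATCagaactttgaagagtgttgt
ASN2 and ASN1, chrVII:740895-740977 and chrXVI:823574-823656: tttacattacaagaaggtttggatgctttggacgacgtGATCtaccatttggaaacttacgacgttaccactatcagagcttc
SER3 and SER33, chrV:323391-323446 and chrIX:221730-221785: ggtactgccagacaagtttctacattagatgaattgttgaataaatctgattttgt

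None of the pairs with shared sequence was among the 10 highest. ASN1 with ASN2, whose bins share 34 such words, had 0 and 1 contacts where 3.13 were expected. SER3 with SER33, enzymes of the first step of serine synthesis with 11 shared words, had 1 and 3 where 3.69 were expected. LYS20 and LYS21, both homocitrate synthases 90 kb apart on chromosome IV with 495 shared words, had 20 and 17 contacts (O/E 1.35). Duplicates without a shared word were as variable: BAT1 with BAT2 had 4 and 2 contacts (O/E 1.60), ARO3 with ARO4 had 0 and 2 (1.15), and LEU4 with LEU9, the isopropylmalate synthases, had 0 and 3 (0.892). Without the 6 pairs that share words the mean of the list stayed at 1.04.

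On the same chromosome, 97 member pairs lay 20 kb or more apart. Their mean O/E was 1.05 in replicate 1 and 1.14 in replicate 2 (1.10 ± 0.0595, SD, n = 2 maps), against 1 for all pairs at the same distance. Above 1 in both maps were 28 (28.9%), against 27.8% of all such pairs, and below 1 were 26 (26.8%), against 39.3%. Over all contacts of these pairs the ratio was 0.994 (0.959 to 1.03), which near pairs dominate. The median over pairs was 1.00, against 0.920 for all pairs.

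The pairs were then separated by arm. The 41 member pairs on opposite arms had 1.28 and 1.38 (1.33 ± 0.0672), against 1.09 and 1.08 for all such pairs, and the 56 on the same arm had 0.889 and 0.966, against 0.937 and 0.940. Contacts across the centromere depend on how evenly both bins are placed. For 13 pairs whose distances to the centromere differ by under 100 kb, the members had 1.63 and all pairs 1.53. For 15 pairs with a difference of 100 to 300 kb they had 1.46 and 1.07, and for 13 pairs with more 0.866 and 0.692. By chromosome, the 18 opposite-arm pairs of chromosome IV had 1.24 and 1.66, against 1.02 and 1.01 for all such pairs there, and the 8 pairs of chromosome VII had 1.89 and 1.05, against 1.30 and 1.27. The 10 pairs of chromosome XV, which carries both arrays, had 0.921 and 1.12, against 0.999 and 1.02. The 3 pairs of chromosome X were lower than all such pairs there, at 1.16 and 1.00 against 1.44 and 1.45, and so was the 1 pair of chromosome III, at 2.23 and 2.15 against 2.54 and 2.57. The 1 pair of chromosome XIV had 0.252 and 1.73, against 0.649 and 0.686. These pairs share bins and are not independent.

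LYS21 with ARO1, the enzyme of 5 steps of the aromatic pathway, was highest at 5 and 9 contacts where 4.57 were expected (O/E 3.08), 480 kb apart. LYS4 had 2 and 6 contacts with GLT1 (O/E 2.75) and 4 in each map with LYS20 (O/E 2.61), which catalyses the preceding step, 800 kb away. ASN2 on chromosome VII had 6 and 4 contacts with ARO8 (O/E 2.70) and 7 and 3 with ARO2 (O/E 2.52). Lowest were LYS21 with TRP4 and ARO3 with LYS4, at 0 contacts in both maps, and ARO2 with TRP5, at 2 and 1 where 12.1 were expected. Of the 14 pairs of one pathway on one chromosome, 3 (21.4%) were above 1 in both maps, against 27.8% of all pairs on one chromosome, and 5 (35.7%) below, against 39.3%. ILV3 with BAT2 had 3 contacts in each map where 14.6 were expected (O/E 0.411). ILV3 with BAT1, on different chromosomes, had 4 and 1 contacts where 1.30 were expected. The expectations of these pairs are of different kinds, so their O/E values cannot be compared.

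**Figure D5:**
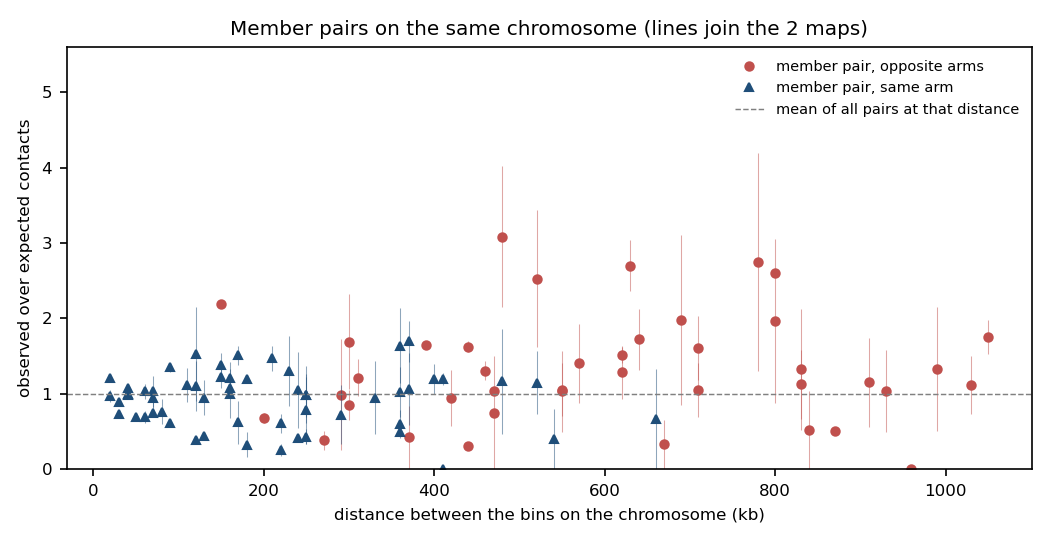
Observed over expected contacts of 97 member pairs on the same chromosome by distance (kb), on opposite arms (red circles) and on the same arm (blue triangles); points are means and thin lines join both maps. Opposite-arm pairs average 1.33 and spread from 0 to 3.08, and same-arm pairs average 0.927.

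Closer than that, 2 pairs of member bins lie side by side. HOM3, the aspartate kinase, and HIS1 had 398 and 447 contacts (O/E 0.794 and 0.920), and ARG4 and THR1 had 414 and 399 (O/E 0.658 in both maps).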

How the data were processed

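Hi-C was measured in 2 replicates of strain yMD291. Per the labels, the authors used HiC-Pro and the sacCer3 build. The authors deposited, for pairs of 10 kb bins, a contact signal that iterative correction had balanced separately in both libraries, so that every bin has the same total and differences in coverage are removed. Because each value times a factor for both bins gave a whole number (to within 0.000162), contacts were recovered and used as counts. Genes came from the R64 reference, which has the same chromosome lengths as the bins.

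Bins were kept where a share of at least 0.5 of partners on other chromosomes had a value in both maps. Expectations between chromosomes used strata with edges at 0, 20, 50, 100, 200, 300 and 500 kb from the centromere, and set apart bins within 30 kb of an end. O/E was computed per map, while contacts were pooled for the one-sided Poisson test (SciPy 1.17.1, statsmodels 0.14.6), whose p-values compare loci within these maps. Scripts were tested on simulated data. Named pairs were the 10 highest and 5 lowest between chromosomes among those that both maps put on one side of 1, the highest and lowest of each pathway, the 5 highest and 3 lowest on the same chromosome, duplicate genes, and consecutive steps past 2 or at 0. Members, pathways and lists were chosen with earlier results of these data known.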

Additional observations from a re-analysis of the deposited data

How the results depend on the processing

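No paired analysis was possible because both maps belong to 1 group. Of 57 values of the main summaries under settings that keep both maps, 45 moved by less than the SD of the maps, or by less than 1.5 times for a count, and for single pathways it was 62 of 79. Settings with 1 map left out are not in these numbers, since they move a mean of 2 maps by less than its SD by construction. Over the settings with both maps, 7 of 10 pathways had means on both sides of 1, the exceptions being arginine (lowest 1.03), histidine (lowest 1.00) and aromatic genes (highest 0.961). Without the filter on bins branched-chain genes, at 1.15, were at 0.977 and lysine genes, at 1.09, were at 0.913. With the mean of all pairs as the expectation glutamate genes, at 1.42, were at 0.884 and proline genes, at 1.01, were at 0.762. By start codon threonine genes, at 0.874, were at 1.07 and the asparagine pair, at 0.331, was at 1.56, while serine genes, at 1.02, were at 0.916 with the balance between chromosomes. The causes were not tested. The mean O/E of members between chromosomes, 1.04, became 0.984 with a balance from contacts between chromosomes only and 0.916 as a median (all pairs 0.847), and it was 1.02 to 1.05 with 1 map left out. It was 0.982 with the own level of both bins in the expectation, against 1.01 for all pairs, a setting chosen after seeing the data. Both settings put the members below 1, and the cause was not tested. Pairs within a pathway were at 1.00 without the filter on bins and 1.03 with the balance between chromosomes, and pairs of different pathways at 0.979 with that balance. Leaving out 1 map gave 1.05 to 1.10 within a pathway and 1.02 to 1.05 between pathways. Consecutive steps, at 1.19, were at 1.08 with the mean of all pairs as the expectation, 1.16 without the filter, 1.22 by start codon, 1.16 by summed contacts and 1.10 over 3 by 3 bins, and between 1.17 and 1.20 with 1 map left out. With only 1 map the counts above and below 1 need no second map, and were 513 to 529 above and 597 to 613 below. On the same chromosome the median was 1.00, and the mean was 1.05 to 1.14 with 1 map left out and 1.09 with an expectation from pairs of the same kind of arm, a setting added after seeing the data. Calls of member pairs were 0 under each of the 6 other settings. Over all pairs there were 96 to 218 calls, except for the 223 of the test without pairs that share words. With the cutoff of 0.01 and without pairs that share words, the 0 followed from the main result. The negative binomial model allows more spread and a single map holds fewer contacts, so these settings were unlikely to add calls. Most of these settings therefore could not check the main count. The low contact numbers limit single pairs, and the 1 to 14 pairs of the smaller pathways.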
